A study of Bos taurus with 8 samples.

Results

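Cell cycle and proliferation genes were followed across peripheral blood mononuclear cells (PBMCs) of 3 groups of cows. The 50 genes were taken from a list that covers DNA replication, nucleotide supply, cyclins and their kinases, transcription factors and mitosis. Probes were assigned to a gene by their transcript accession. Of the 50 genes, 43 had at least 1 probe on the array, with 94 probes in all. Only probes that the scanner software marked well above background on all arrays of some group were used, which held for 76 of the 94 probes and left 41 genes among the 15137 genes tested. No probe matched MKI67, TOP2A, CENPA, MCM2, CDT1, GINS2 or FOXM1, and no probe of CCNE2 or CENPF passed.

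PBMCs are lymphocytes and monocytes separated from the rest of the blood. They came from lame crossbred cows (4 arrays), normal crossbred cows (2 arrays) and normal cows of the Tharparkar, a zebu breed of India (2 arrays). Each of the 8 arrays, of an Agilent bovine design read in 1 colour, took Cy3-labelled total RNA. The labels give neither the ages of the cows nor how lameness was graded, nor do they say how many cows gave each RNA. The labels state technical duplicates of the RNA but not which arrays share an RNA. If the first number in a title marks the RNA, a reading that rests on the titles and on correlations between arrays, there were 4 RNA samples: lame R1 and lame R2, then 1 for each normal group. The lame RNA samples named below follow this reading. Because p-values rest on the spread between arrays, they overstate the evidence about cows. Lame against normal crossbred addresses lameness within the crossbred cows, and normal crossbred against normal Tharparkar addresses breed. Lame crossbred against normal Tharparkar differs in both, and each pair of these comparisons shares arrays.

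A dividing cell copies its DNA in S phase and separates the copies in mitosis. Cyclins activate cyclin-dependent kinases to drive each step, E2F factors switch on the replication genes, and the anaphase-promoting complex ends mitosis by degrading cyclins and securin. Most circulating lymphocytes and monocytes are at rest and carry little of this RNA, while activated lymphocytes, plasmablasts and blood precursors carry more.

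Between 52.8% and 61.4% of the 43653 noncontrol probes were well above background on 7 arrays, and 70.9% were on lame R2_2, whose median raw signal of 192.5 stood against 74 to 102 on the others. Values of all genes correlated at 0.981 to 0.995 between lame arrays with the same first number in their title and at 0.995 to 0.997 between arrays of a normal group. They correlated at 0.951 to 0.970 between the other pairs of lame arrays. The T cell genes CD3D, CD3E and CD3G, the cytotoxic gene NKG7 and the monocyte genes CD14 and CSF1R were well above background on all 8 arrays. The granulocyte genes CXCR1, S100A8, S100A9 and MMP9 were also well above background on all 8 arrays.

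Cell cycle genes were lowest in lame crossbred cows, intermediate in normal crossbred cows and highest in normal Tharparkar cows. Against normal Tharparkar, 29 of the 41 genes were lower in lame crossbred cows by limma at an adjusted p under 0.05 and 0 were higher, against a background of 10.7% of all genes called lower and 12.6% called higher. The median difference of the 41 genes was -1.16 on the log2 scale, a 2.24-fold lower signal, against -0.01 over all genes. In lame against normal crossbred, 7 genes were lower (PTTG1, UBE2C, KIF23, CCNA2, CDK1, BIRC5 and RRM2) and 0 were higher, against backgrounds of 6.33% and 3.28%. The median was -0.51, or 1.43-fold lower, against -0.04 over all genes. In normal crossbred against normal Tharparkar, 9 genes were lower (CDC20, UBE2C, KIF20A, TPX2, CCNA2, CCNE1, BIRC5, CDCA8 and MAD2L1) and 0 were higher, against backgrounds of 6.88% and 11.8%. The median was -0.56, or 1.48-fold lower, against 0.01 over all genes.

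UBE2C, CCNA2 and BIRC5 were lower in all 3 comparisons. At an unadjusted p under 0.05, limma had 22 genes lower and 0 higher in lame against normal crossbred, where 15.7% of all genes were lower and 10.1% higher. It had 19 and 0 in normal crossbred against normal Tharparkar (13.9% and 19.8% of all genes) and 32 and 0 in lame against normal Tharparkar (17.8% and 19.7%). The difference had a negative sign for 38, 39 and 41 of the 41 genes in these comparisons, for 39, 36 and 40 under normexp background correction and for 38, 37 and 40 under quantile normalization. The exceptions with the 75th percentile were CCNB1, MCM3 and MCM7 in the lameness comparison and CDC45 and KIF23 in the breed comparison, and the exception to 41 under both other scalings was CDK2. In 24 of the 41 genes (58.5%) all 4 lame arrays lay under both normal crossbred arrays and these under both normal Tharparkar arrays, against 5.26% of all genes. In bulk RNA, fewer cells of a type and less RNA per cell cannot be told apart.

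These counts depended on how duplicates were treated. Averaging duplicates left 1 value in each normal group, so those fits took their spread from the lame values alone. By the first number, every gene got the same SE within a comparison (0.67 in lame against normal Tharparkar). Calls of that fit were therefore a cut-off on the size of the difference. With the RNA sample as a random block, 0 genes were lower in lame against normal crossbred, with 8 lower at an unadjusted p under 0.05 (5.32% of all genes), 1 (CCNE1) in normal crossbred against normal Tharparkar and 5 (BIRC5, CCNA2, CCNE1, CDCA3 and UBE2C) in lame against normal Tharparkar. That fit called 0.0661%, 0.159% and 0.608% of all genes lower in these comparisons. With lame arrays of the same first number averaged as duplicates, limma's counts were 0, 0 and 2 (CCNE1 and CDCA8), against 0.647%, 0.978% and 1.4% of all genes. At an unadjusted p under 0.05 they were 1, 2 and 13, against 3.05%, 3.2% and 3.53%. With lame arrays of the same last number averaged instead, 6, 11 and 32 genes were lower, against 5.03%, 8.33% and 12.2% of all genes. That fit also called 1 gene (MCM3) higher in lame against normal crossbred, against 3.96% of all genes. Leaving out arrays also moved the counts. With any 1 normal array left out, 1 array remained in its group and the counts fell in every comparison. So did the shares of all genes called lower. Without either normal crossbred array 0 genes were called in lame against normal crossbred, with 3 without either Tharparkar array and 11 without lame R2_2, where 7.66% of all genes were called lower. In normal crossbred against normal Tharparkar, 2 were called without any 1 of the 4 normal arrays and 20 without lame R2_2 (10.7% of all genes), and in lame against normal Tharparkar 12 were called without either Tharparkar array.

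The median of the genes was computed for each array as a distance from the mean of the 3 group means. It was -0.42 and -0.41 on the lame R1 arrays, -0.80 and -0.77 on the lame R2 arrays, -0.03 and -0.05 on the normal crossbred arrays and 0.59 and 0.56 on the normal Tharparkar arrays. No lame array reached a normal crossbred array, and no normal crossbred array reached a Tharparkar array. Each slide held arrays of all 3 groups. Within slide 1 and slide 2 the median difference was -0.59 and -0.46 in lame against normal crossbred, -0.55 and -0.58 in normal crossbred against normal Tharparkar, and -1.18 and -1.14 in lame against normal Tharparkar. With the slide as a replicate block the genes called lower in lame against normal crossbred numbered 4.

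**Figure D1:**
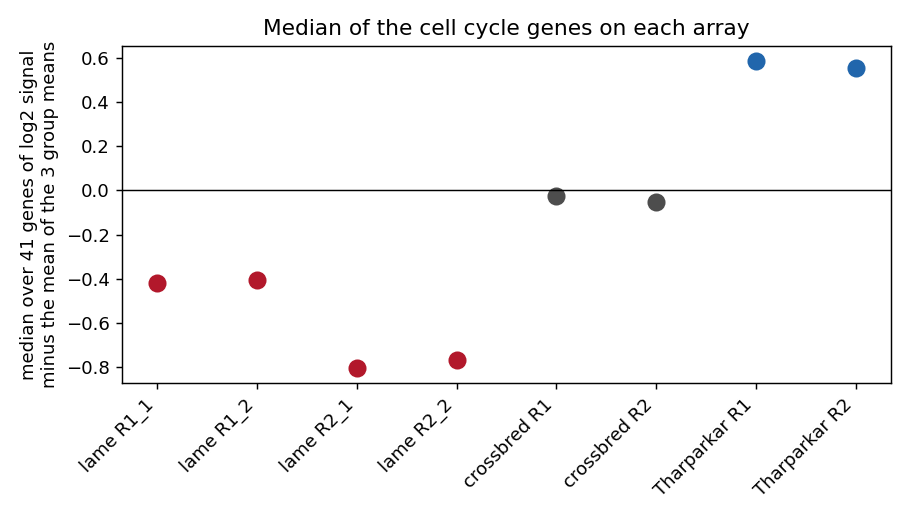
Median over the 41 cell cycle genes of each array's log2 signal minus the mean of the 3 group means, by array (lame red, normal crossbred grey, normal Tharparkar blue). The 4 lame arrays lie between -0.80 and -0.41, under the 2 normal crossbred arrays at -0.05 and -0.03 and the 2 Tharparkar arrays at 0.56 and 0.59.

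**Figure D2:**
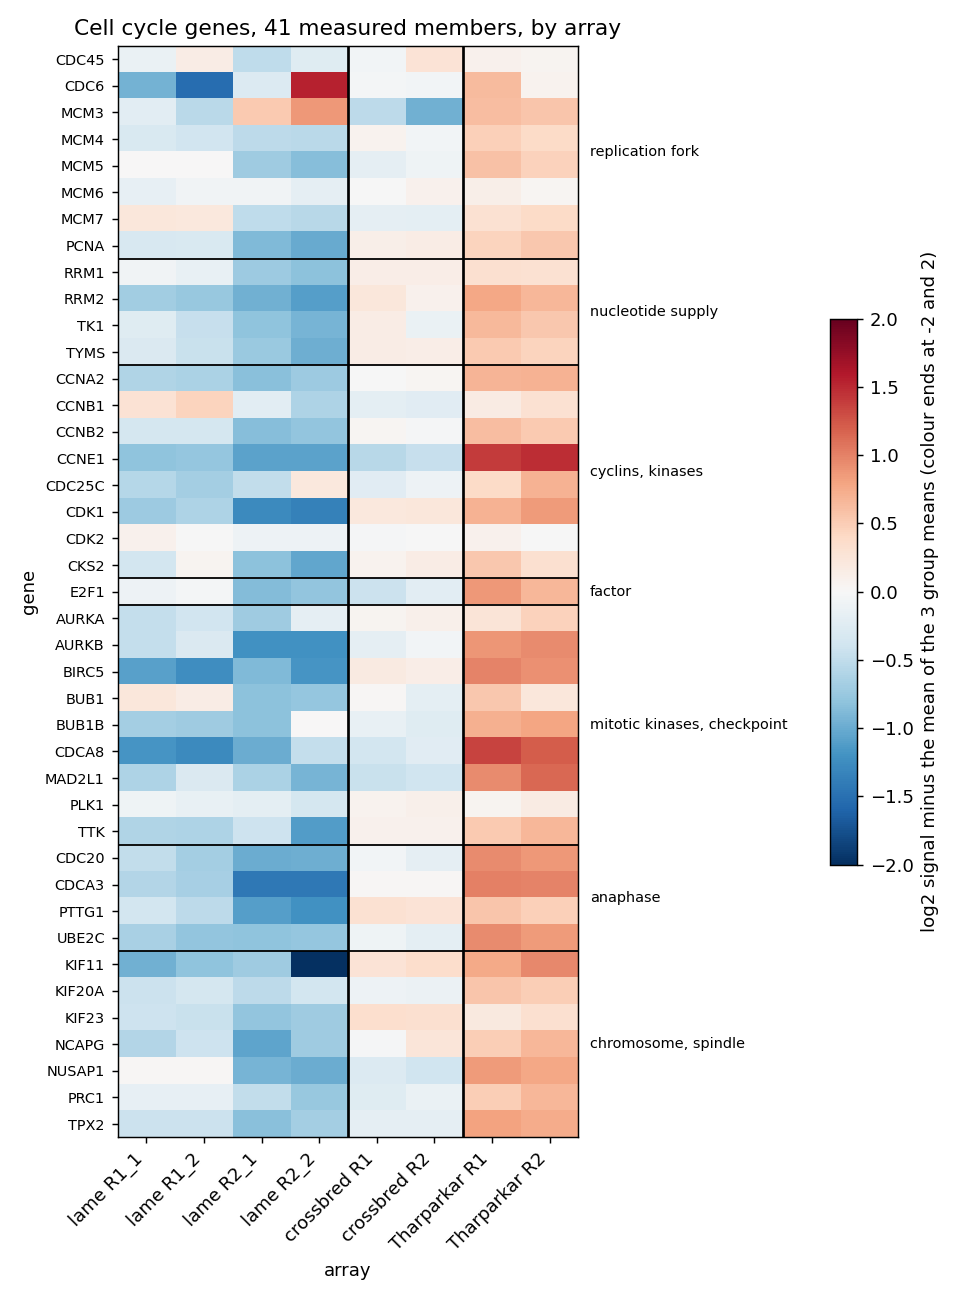
Log2 signal of each of the 41 genes (rows, by role) on each of the 8 arrays (columns, lame, normal crossbred and normal Tharparkar), as a distance from the mean of the 3 group means. Blue is lower and red higher, and colours end at -2 and 2. Most rows run from blue on the lame arrays to red on the Tharparkar arrays, with CDK2, CDC45, CDC6, MCM3 and CCNB1 among those that do not.

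In what follows a level is the log2 of a probe's background-corrected signal after subtraction of its array's 75th percentile. Levels, overlaps and calls of a gene are those of its brightest passing probe unless another probe is named, and other probes did not always share them. Lame values are in the order R1_1, R1_2, R2_1 and R2_2, and values of the normal groups in the order R1 and R2. A difference is between group means of levels, with its standard error (SE) from limma, and n is 4 lame, 2 normal crossbred and 2 normal Tharparkar arrays.

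The origin licensing and replication fork genes moved least. They encode the MCM helicase, the loading factor CDC6, the fork factor CDC45 and the sliding clamp PCNA. Of the 8 measured, 2 (MCM4 and PCNA) were lower in lame crossbred than in normal Tharparkar cows, with a median of -0.58. By limma 0 were called lower in lame against normal crossbred (2 at an unadjusted p under 0.05) and 0 in normal crossbred against normal Tharparkar (also 2).

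MCM4, a subunit of the replicative helicase, had levels of 3.21, 3.12, 2.99 and 2.97 in lame crossbred, 3.58 and 3.46 in normal crossbred and 3.98 and 3.89 in normal Tharparkar. The groups did not overlap, and the difference of -0.86 between lame crossbred and normal Tharparkar (SE 0.14) had a limma adjusted p of 0.00556. PCNA, the clamp that holds polymerases on DNA, read 3.61, 3.63, 3.05 and 2.92 in lame crossbred, 4.04 and 4.07 in normal crossbred and 4.38 and 4.47 in normal Tharparkar. It differed by -1.12 in the same comparison (SE 0.24, limma adjusted p = 0.0156). Thus the lame R2 arrays were the lowest for this gene and the lame R1 arrays lay between them and the normal arrays. MCM3, another helicase subunit, did not pass the test in any comparison with arrays as observations, with levels of -2.72, -3.04, -1.99 and -1.63 in lame crossbred, -3.03 and -3.47 in normal crossbred and -1.89 and -1.95 in normal Tharparkar. Its differences were 0.90 in lame against normal crossbred, -1.33 in normal crossbred against normal Tharparkar and -0.42 in lame against normal Tharparkar. Its mean was lowest in normal crossbred cows, and its lame arrays ran from about the higher normal crossbred array to above both Tharparkar arrays. MCM5, MCM6, MCM7, CDC45 and CDC6 were not called, with differences between -0.91 (MCM5) and -0.20 (MCM6) in lame against normal Tharparkar. CDC6 was well above background on 2 of the 4 lame arrays.

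All 4 genes of nucleotide supply had a negative difference in every comparison, except that RRM1 turned to 0.06 in normal crossbred against normal Tharparkar under normexp. They make deoxynucleotides: RRM1 and RRM2 are the subunits of ribonucleotide reductase, TYMS makes thymidylate and TK1 salvages thymidine. RRM2, TK1 and TYMS were lower in lame crossbred than in normal Tharparkar cows, and RRM2 was lower in lame than in normal crossbred cows.

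RRM2, the subunit whose level follows S phase, read 0.31, 0.23, 0.03 and -0.10 in lame crossbred, 1.22 and 1.09 in normal crossbred and 1.78 and 1.66 in normal Tharparkar. Its difference was -1.04 in lame against normal crossbred (SE 0.16, limma adjusted p = 0.0103) and -1.60 in lame against normal Tharparkar (SE 0.16, limma adjusted p = 0.000972). The lowest normal crossbred array was above every lame array. TK1 read 4.51, 4.30, 3.96 and 3.82 in lame crossbred, 4.91 and 4.63 in normal crossbred and 5.42 and 5.30 in normal Tharparkar, a difference of -1.21 in lame against normal Tharparkar. TYMS read 2.80, 2.64, 2.35 and 2.12 in lame crossbred, 3.25 and 3.22 in normal crossbred and 3.62 and 3.54 in normal Tharparkar, a difference of -1.10. For TK1 and TYMS the 3 groups did not overlap, and the lame R2 arrays were lower than the lame R1 arrays. The other passing probe of TK1 did not share this. There lame R1 read -1.43 and -1.41, lame R2 -0.41 and -0.57 and normal crossbred -0.86 and -0.92, so the crossbred groups overlapped. RRM1, the larger subunit, was not called and differed by -0.75 in lame against normal Tharparkar (limma adjusted p = 0.0653).

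Among cyclins, kinases and their partners, 5 of 8 genes were lower in lame crossbred than in normal Tharparkar cows (CCNE1, CCNA2, CCNB2, CDK1 and CDC25C). CCNA2 and CDK1 were lower in lame than in normal crossbred cows, and CCNE1 and CCNA2 were lower in normal crossbred than in normal Tharparkar cows. The medians were -0.51 in lame against normal crossbred, -0.56 in normal crossbred against normal Tharparkar and -1.07 in lame against normal Tharparkar.

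CCNE1, the cyclin E that drives entry into S phase, had the largest difference of the 41 genes in lame against normal Tharparkar. Its levels were -0.55, -0.52, -0.82 and -0.82 in lame crossbred, -0.30 and -0.22 in normal crossbred and 1.66 and 1.72 in normal Tharparkar. The difference was -1.95 in normal crossbred against normal Tharparkar (SE 0.18, limma adjusted p = 0.000802) and -2.37 in lame against normal Tharparkar (SE 0.15, limma adjusted p = 0.000189). In lame against normal crossbred it was -0.42 (SE 0.15, limma adjusted p = 0.131). So both crossbred groups were several-fold under Tharparkar, while the lame and normal crossbred arrays lay close together without overlapping.

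CCNA2, the cyclin A of S phase and early mitosis, stepped down by similar amounts in both comparisons. It read -1.86, -1.89, -2.09 and -1.99 in lame crossbred, -1.26 and -1.22 in normal crossbred and -0.58 and -0.56 in normal Tharparkar. The difference was -0.72 in lame against normal crossbred (SE 0.13, limma adjusted p = 0.0183) and -0.67 in normal crossbred against normal Tharparkar (SE 0.15, limma adjusted p = 0.0231). The 4 lame arrays lay within a narrow range, so both lame RNA samples were well under the normal crossbred arrays.

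CDK1, the kinase that triggers mitosis, was lower mainly in the lame arrays. Its levels were -1.04, -0.94, -1.59 and -1.67 in lame crossbred, -0.11 and -0.10 in normal crossbred and 0.37 and 0.54 in normal Tharparkar. The difference was -1.21 in lame against normal crossbred (SE 0.24, limma adjusted p = 0.0242) and -1.76 in lame against normal Tharparkar. CCNB2, a cyclin B that partners CDK1, read -1.25, -1.24, -1.75 and -1.67 in lame crossbred, -0.86 and -0.91 in normal crossbred and -0.27 and -0.36 in normal Tharparkar. Its 3 groups did not overlap, and its difference of -1.16 in lame against normal Tharparkar was the median of the 41 genes. CDC25C, the phosphatase that activates CDK1, differed by -0.92 in lame against normal Tharparkar (limma adjusted p = 0.0436), with lame R2_2 at -2.75 above both normal crossbred arrays at -3.18 and -3.05.

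The other members of the group were not called. CDK2, the kinase partner of cyclins E and A, read 1.14, 1.05, 0.95 and 0.95 in lame crossbred, 1.02 and 1.05 in normal crossbred and 1.14 and 1.04 in normal Tharparkar. All 8 arrays overlapped, with differences of -0.01, -0.05 and -0.07, so the cyclins CCNE1 and CCNA2 were lower while the level of this partner was nearly flat. CCNB1, the other cyclin B, differed by -0.26 in lame against normal Tharparkar, with lame R2_2 not well above background, and CKS2, a small CDK-binding protein, by -0.98 (limma adjusted p = 0.0531).

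E2F1, which activates replication genes, was the measured transcription factor. It read -1.0, -0.95, -1.77 and -1.69 in lame crossbred, -1.33 and -1.12 in normal crossbred and -0.04 and -0.24 in normal Tharparkar. Lame R1 lay above normal crossbred and lame R2 below it, so the crossbred groups overlapped, and Tharparkar stood above both. The difference was -1.22 in lame against normal Tharparkar (SE 0.28, limma adjusted p = 0.0199) and -1.09 in normal crossbred against normal Tharparkar (limma adjusted p = 0.0545).

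**Figure D3:**
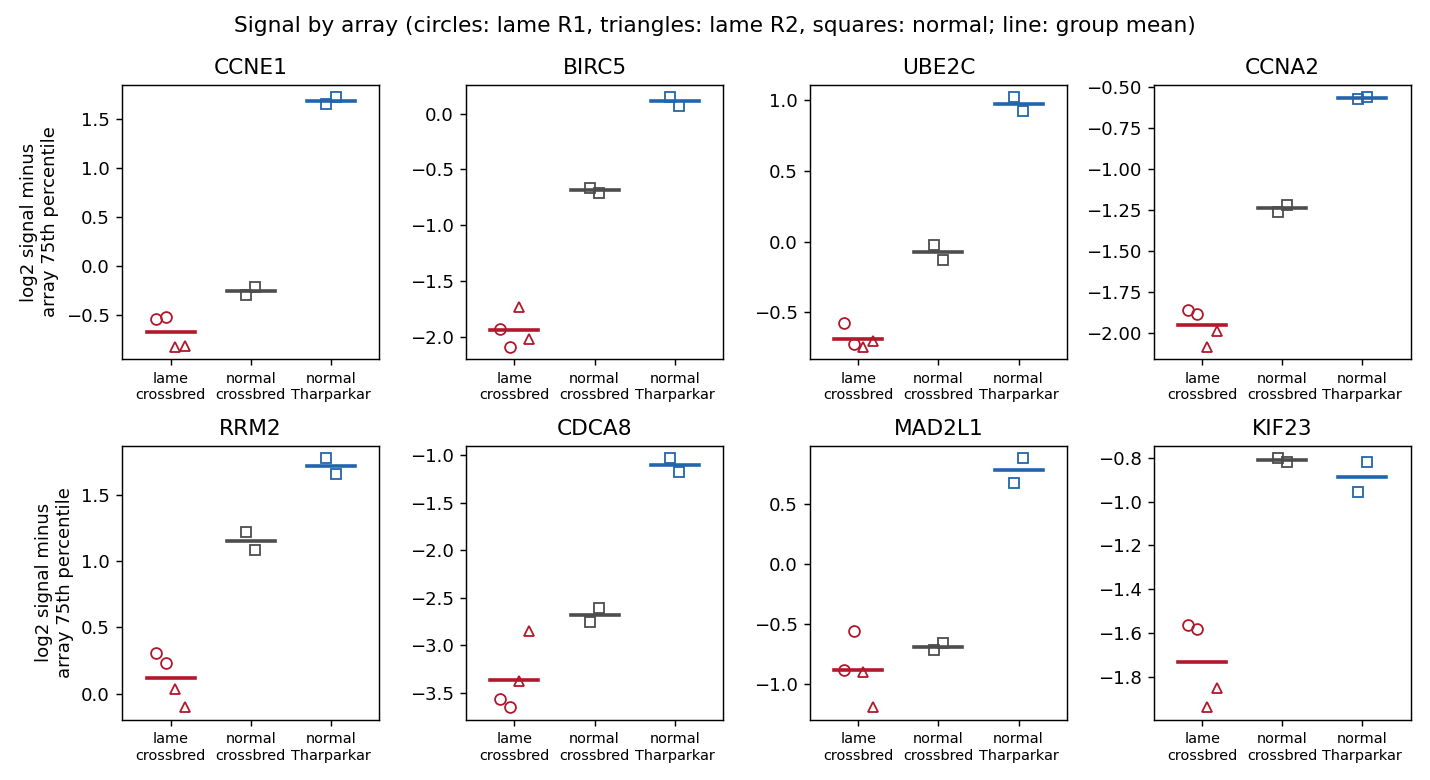
Level (log2 signal minus the array's 75th percentile, each panel with its own scale) of CCNE1, BIRC5, UBE2C, CCNA2, RRM2, CDCA8, MAD2L1 and KIF23 on each array, with group means as lines and lame, normal crossbred and normal Tharparkar from left to right. CCNE1 and MAD2L1 stand apart in Tharparkar, KIF23 stands apart in the lame arrays, and CCNA2, UBE2C, BIRC5 and RRM2 step up from lame to normal crossbred to Tharparkar.

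Of the 9 mitotic kinases, passenger complex and checkpoint genes, 7 were lower in lame crossbred than in normal Tharparkar cows (AURKA, AURKB, BIRC5, BUB1B, CDCA8, MAD2L1 and TTK). BIRC5 was lower in lame than in normal crossbred cows, and BIRC5, CDCA8 and MAD2L1 were lower in normal crossbred than in normal Tharparkar cows. The median in lame against normal Tharparkar was -1.30.

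BIRC5 (survivin) and CDCA8 (borealin) belong to the chromosomal passenger complex, which carries the kinase AURKB to the centromeres. BIRC5 read -1.93, -2.09, -1.73 and -2.02 in lame crossbred, -0.66 and -0.72 in normal crossbred and 0.14 and 0.07 in normal Tharparkar. Its difference was -1.25 in lame against normal crossbred (SE 0.15, limma adjusted p = 0.00355), -0.80 in normal crossbred against normal Tharparkar (SE 0.17, limma adjusted p = 0.0186) and -2.05 in lame against normal Tharparkar (SE 0.15, limma adjusted p = 0.000274). All 4 lame arrays, of both RNA samples, were at least 1 log2 unit under the normal crossbred arrays.

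CDCA8 had levels of -3.57, -3.65, -3.38 and -2.85 in lame crossbred, -2.76 and -2.61 in normal crossbred and -1.03 and -1.17 in normal Tharparkar. The difference was -1.58 in normal crossbred against normal Tharparkar (SE 0.27, limma adjusted p = 0.00832) and -2.26 in lame against normal Tharparkar (SE 0.24, limma adjusted p = 0.00104). Lame R2_2 lay close under the lower normal crossbred array, and the other lame arrays were further down. AURKB itself read -1.25, -1.07, -1.99 and -2.0 in lame crossbred, -0.96 and -0.84 in normal crossbred and 0.10 and 0.17 in normal Tharparkar. It differed by -1.71 in lame against normal Tharparkar (limma adjusted p = 0.00741). Lame R2 was far lower than lame R1 for this gene, and lame R1 was close to normal crossbred.

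MAD2L1, a spindle checkpoint protein that holds back anaphase, resembled CCNE1 in that Tharparkar stood apart. It read -0.89, -0.56, -0.90 and -1.19 in lame crossbred, -0.72 and -0.66 in normal crossbred and 0.68 and 0.88 in normal Tharparkar. The difference was -1.47 in normal crossbred against normal Tharparkar (SE 0.22, limma adjusted p = 0.00539) and -0.20 in lame against normal crossbred (limma adjusted p = 0.58). The lame and normal crossbred arrays overlapped.

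BUB1B (BUBR1), another checkpoint protein, read -1.13, -1.17, -1.28 and -0.45 in lame crossbred, -0.61 and -0.70 in normal crossbred and 0.25 and 0.33 in normal Tharparkar, so lame R2_2 lay above the normal crossbred arrays. Its difference in lame against normal Tharparkar was -1.30. TTK, the checkpoint kinase also called MPS1, read -2.86, -2.88, -2.68 and -3.38 in lame crossbred, -2.18 and -2.18 in normal crossbred and -1.74 and -1.60 in normal Tharparkar, a difference of -1.28 with no overlap between groups. Its value on lame R2_2 was not well above background. AURKA, the kinase of the spindle poles, was lower by a smaller amount, with a difference of -0.79. PLK1, a kinase of mitotic entry and exit, was not called: it read 3.16, 3.09, 3.06 and 2.89 in lame crossbred, 3.31 and 3.35 in normal crossbred and 3.31 and 3.40 in normal Tharparkar, with a difference of -0.30 in lame against normal Tharparkar. BUB1, a checkpoint kinase, was not called either on its brightest probe, at -0.69. Its other passing probes gave -1.79 (limma adjusted p over all probes = 0.00467) and 0.17.

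All 4 genes of anaphase and its ubiquitin ligases were lower in lame crossbred than in normal Tharparkar cows, with a median of -1.67. UBE2C and PTTG1 were lower in lame than in normal crossbred cows, and CDC20 and UBE2C were lower in normal crossbred than in normal Tharparkar cows. In each of the 4 genes all lame arrays lay under both normal crossbred arrays, as they did in 3497 of all 15137 genes. The other passing probe of CDC20 did not share this.

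UBE2C is the ubiquitin-conjugating enzyme of the anaphase-promoting complex. Its levels were -0.58, -0.72, -0.74 and -0.70 in lame crossbred, -0.02 and -0.13 in normal crossbred and 1.02 and 0.92 in normal Tharparkar. The difference was -0.61 in lame against normal crossbred (SE 0.13, limma adjusted p = 0.0305), -1.05 in normal crossbred against normal Tharparkar (SE 0.15, limma adjusted p = 0.00443) and -1.66 in lame against normal Tharparkar (SE 0.13, limma adjusted p = 0.000373). Its lame arrays were among the tightest of the 41 genes. CDC20, the activator of the same complex, read -0.56, -0.74, -1.05 and -1.03 in lame crossbred, -0.12 and -0.24 in normal crossbred and 0.89 and 0.80 in normal Tharparkar. It differed by -1.02 in normal crossbred against normal Tharparkar (limma adjusted p = 0.0157) and by -1.69 in lame against normal Tharparkar.

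PTTG1 (securin), which the complex destroys to free separase, was called in the lameness comparison and not in the breed comparison, a contrast that was not tested. It read 2.01, 1.85, 1.27 and 1.16 in lame crossbred, 2.67 and 2.64 in normal crossbred and 2.92 and 2.85 in normal Tharparkar. The difference was -1.08 in lame against normal crossbred (SE 0.26, limma adjusted p = 0.0438) and -0.23 in normal crossbred against normal Tharparkar (limma adjusted p = 0.645). Thus the 2 normal groups were near each other, and lame R2 was lower than lame R1. CDCA3, known from Xenopus as a trigger of mitotic entry, read 1.86, 1.80, 1.02 and 1.03 in lame crossbred, 2.48 and 2.48 in normal crossbred and 3.47 and 3.45 in normal Tharparkar. Its difference was -2.03 in lame against normal Tharparkar (SE 0.28, limma adjusted p = 0.00331), and its 3 groups were spaced about evenly.

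All 7 measured genes of chromosomes, centromeres and the spindle were lower in lame crossbred than in normal Tharparkar cows, with a median of -1.27. KIF23 was lower in lame than in normal crossbred cows, and KIF20A and TPX2 were lower in normal crossbred than in normal Tharparkar cows.

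KIF23, the kinesin of the central spindle in cytokinesis, was called in the lameness comparison and not in the breed comparison, and the contrast between the comparisons was not tested. It read -1.56, -1.58, -1.94 and -1.85 in lame crossbred, -0.80 and -0.82 in normal crossbred and -0.96 and -0.82 in normal Tharparkar. The difference was -0.92 in lame against normal crossbred (SE 0.16, limma adjusted p = 0.015) and 0.08 in normal crossbred against normal Tharparkar (limma adjusted p = 0.816). In KIF23 the lame arrays stood under all 4 normal arrays. KIF20A, another cytokinesis kinesin, read -1.61, -1.54, -1.72 and -1.56 in lame crossbred, -1.29 and -1.32 in normal crossbred and -0.63 and -0.70 in normal Tharparkar, so the lame arrays were close to the normal crossbred ones without overlapping them. It differed by -0.64 in normal crossbred against normal Tharparkar (SE 0.15, limma adjusted p = 0.0247). PRC1, which bundles microtubules of the central spindle with KIF23, read 1.42, 1.42, 1.08 and 0.82 in lame crossbred, 1.33 and 1.45 in normal crossbred and 2.08 and 2.24 in normal Tharparkar. Here the crossbred groups overlapped, and the difference in lame against normal Tharparkar was -0.97.

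TPX2, a spindle assembly factor that activates AURKA, read 2.14, 2.14, 1.73 and 1.88 in lame crossbred, 2.39 and 2.39 in normal crossbred and 3.36 and 3.30 in normal Tharparkar. It differed by -0.94 in normal crossbred against normal Tharparkar (SE 0.19, limma adjusted p = 0.0147). NCAPG, a condensin subunit that compacts chromosomes, read 0.47, 0.64, 0.00 and 0.34 in lame crossbred, 1.02 and 1.29 in normal crossbred and 1.54 and 1.72 in normal Tharparkar, a difference of -1.27 in lame against normal Tharparkar. For both genes the 3 groups did not overlap. KIF11, the kinesin that pushes spindle poles apart, read -4.16, -4.01, -3.93 and -5.40 in lame crossbred, -2.94 and -2.86 in normal crossbred and -2.46 and -2.25 in normal Tharparkar. Its value on lame R2_2 was not well above background and stood far from the other lame arrays, and the difference in lame against normal Tharparkar was -2.02 (SE 0.40, limma adjusted p = 0.0126). NUSAP1, a microtubule-binding protein of the spindle, differed by -1.28 in lame against normal Tharparkar (limma adjusted p = 0.0326).

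**Figure D4:**
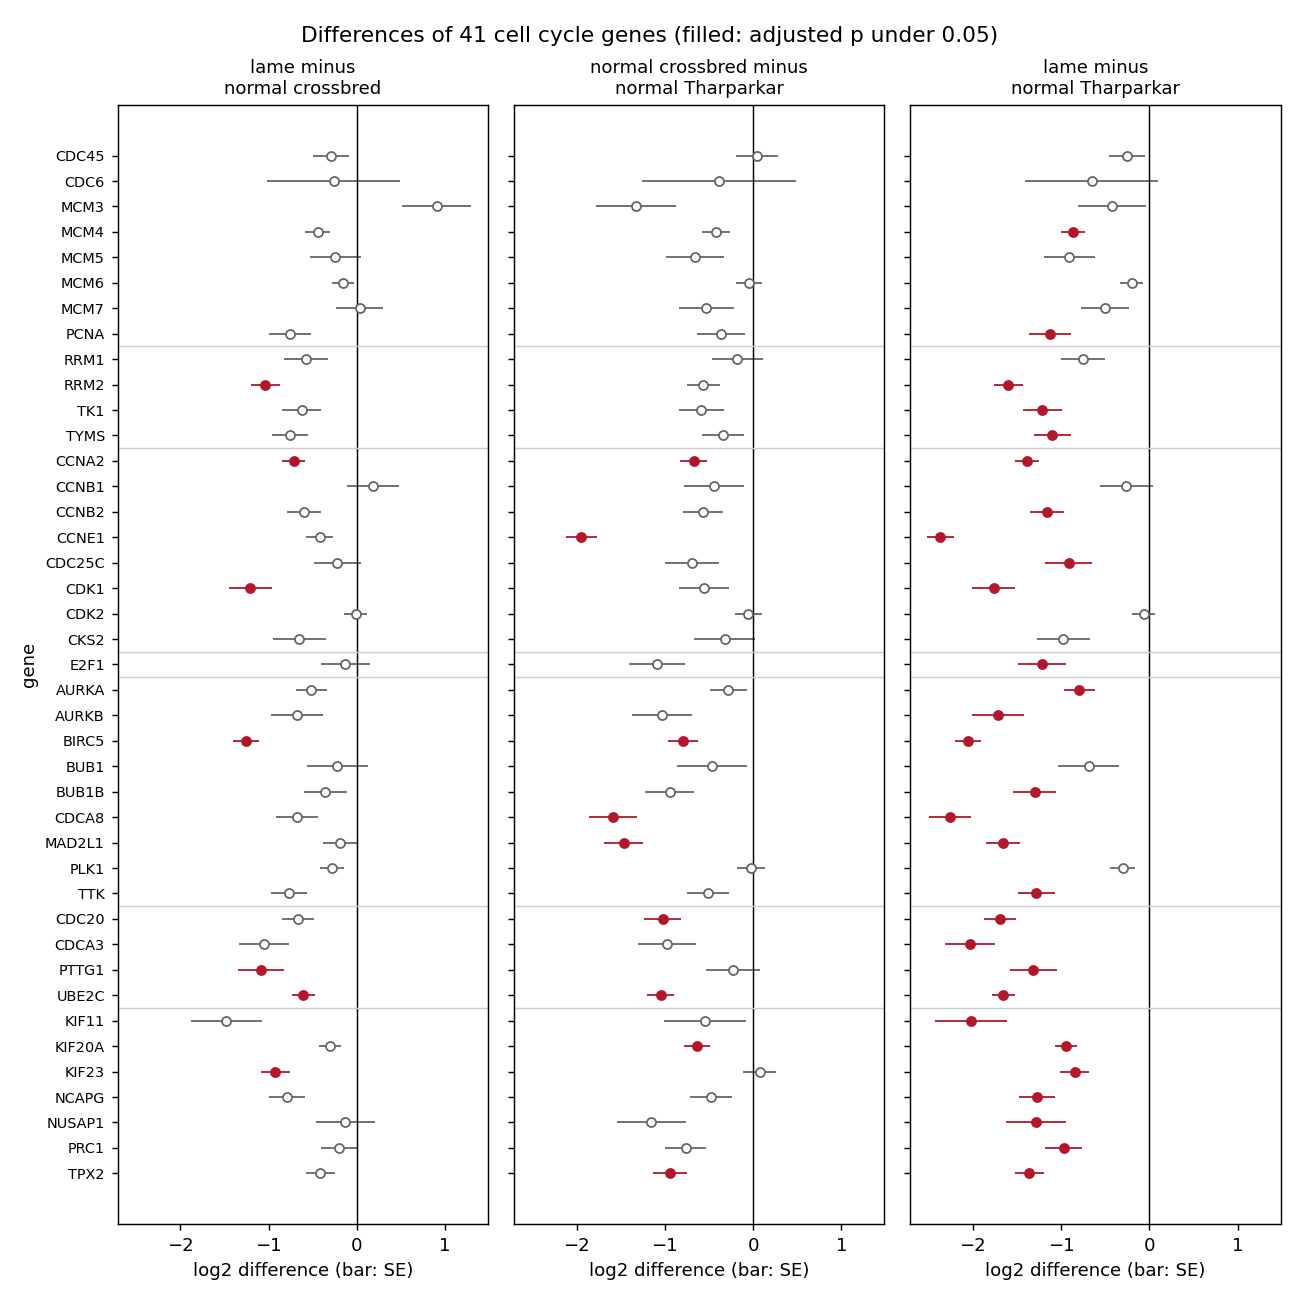
Log2 differences of the 41 genes, by role, in lame minus normal crossbred, normal crossbred minus normal Tharparkar and lame minus normal Tharparkar, with bars for the SE and filled points for a limma adjusted p under 0.05. The filled points number 7, 9 and 29, all to the left of 0, and the bottom group, from KIF11 to TPX2, is filled throughout in the third panel.

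Lame R1 and lame R2 differed from each other. In 35 of the 41 genes the mean of lame R1 was above that of lame R2, by a median of 0.37 on the log2 scale, against 0.18 over all genes. The medians of both were nonetheless under the normal groups. Lame R1 differed from normal crossbred by a median of -0.36, with 32 genes negative, and lame R2 by -0.64, with 38 negative. Against normal Tharparkar the medians were -0.95 and -1.36, with 39 genes negative for each. When lame R1 or lame R2 stood alone for the lame group, 25 and 30 genes were called lower than normal crossbred, against 22.5% and 31.2% of all genes, in fits whose spread comes from technical duplicates only. In the same fits 3 genes (CCNB1, MCM7 and NUSAP1) were called higher with lame R1 and 1 (MCM3) with lame R2, against 24.8% and 15% of all genes.

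In 6 of the 41 genes, or 14.6% (E2F1, NUSAP1, MCM5, MCM7, BUB1 and CDK2), both lame R1 arrays lay above both normal crossbred arrays and both lame R2 arrays below them on the brightest probe. This share was near the 15.7% of all genes that did so, and in CDK2 the lower lame R1 array and the higher normal crossbred array both read 1.05. NUSAP1 read 1.09, 1.09, 0.14 and 0.08 in lame crossbred, 0.79 and 0.67 in normal crossbred and 1.93 and 1.84 in normal Tharparkar. BUB1 read -1.37, -1.45, -2.42 and -2.37 in lame crossbred, -1.57 and -1.79 in normal crossbred and -1.06 and -1.37 in normal Tharparkar. On another passing probe of NUSAP1 and of BUB1 all lame arrays lay under both normal crossbred arrays. Limma over all probes called these lower, by -0.68 for NUSAP1 (adjusted p = 0.0314) and -1.40 for BUB1 (adjusted p = 0.0243). The remaining BUB1 probe differed by -0.05. MCM7 read 4.95, 4.93, 4.22 and 4.16 in lame crossbred, 4.54 and 4.53 in normal crossbred and 5.03 and 5.10 in normal Tharparkar.

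Of the 41 genes, 25 had more than 1 passing probe, and these did not always give the same sign. Over the 76 passing probes the difference was negative for 55 in lame against normal crossbred, 66 in normal crossbred against normal Tharparkar and 71 in lame against normal Tharparkar. With each probe tested on its own, 9, 12 and 43 of the 76 probes were called lower, against 4.14%, 7.97% and 9.80% of all probes tested. The sign differed between passing probes of 13 genes in lame against normal crossbred (BUB1B, CCNB2, CDC20, CDC25C, CDC45, CDCA8, E2F1, KIF23, MCM4, MCM5, NCAPG, PRC1 and TPX2), more than in the other comparisons. By size the comparisons were alike, with probes that differed by over 1 in 8 genes in lame against normal crossbred, 7 in normal crossbred against normal Tharparkar and 8 in lame against normal Tharparkar.

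In normal crossbred against normal Tharparkar the sign differed for 7 genes (BUB1, BUB1B, CDC45, CDK2, MCM3, NCAPG and PCNA), and in lame against normal Tharparkar for 5 (BUB1, CDK2, KIF23, MCM3 and NCAPG). KIF23 is an example among the called genes: its brightest probe gave -0.92 in lame against normal crossbred and another passing probe gave 0.20, and in lame against normal Tharparkar they gave -0.85 and 0.51. The probes of MAD2L1 agreed in sign and not in size, at -1.47 and -0.38 in normal crossbred against normal Tharparkar. Probes also differed by over 1 in at least 1 comparison for BUB1, BUB1B, CCNB2, CDC20, CDC45, CDCA8, MCM3, MCM4, MCM7, NCAPG and TPX2.

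The dimmest passing probes of CDC20, CDCA8 and MCM7 were not well above background on the normal crossbred arrays. They passed the filter only through the Tharparkar arrays, so a lower signal in normal crossbred than in Tharparkar was partly set by the filter. Their folds are therefore no separate support for that difference. On these probes normal crossbred was at least 2.72-fold, 4.03-fold and 3.12-fold lower than normal Tharparkar for CDC20, CDCA8 and MCM7. On the same probes lame crossbred was at least 2.16-fold (CDC20), 1.49-fold (CDCA8) and 2.33-fold (MCM7) higher than normal crossbred, with 3, 2 and 3 of the 4 lame arrays well above background. These lame bounds rested on lame R2_2, which read -1.80, -2.09 and -1.61 on the 3 probes: without it they were 1.42-fold for CDC20 and 1.5-fold for MCM7, and CDCA8 had none. None of these 6 differences passed the test, with limma adjusted p-values over all probes from 0.13 to 0.64. For CDC20 and CDCA8 the lame difference has the opposite sign to that of their brighter probes. The brighter probes of MCM7 gave 0.03 and 0.01 in lame against normal crossbred. Among the 18 probes that did not pass, the difference was positive for 15 in lame against normal crossbred, with a median of 0.84. The median of these 18 probes was 0.34 without lame R2_2. Over all genes the median in that comparison was -0.04 with the filter on dim probes and 0.31 without it. Whether the dim cell cycle probes differ from other dim probes was not tested. The lame R1 arrays differed from normal crossbred by a median of 0.05 on these 18 probes, lame R2_1 by 0.88 and lame R2_2 by 2.43, so the higher readings on dim probes were those of the lame R2 arrays.

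**Figure D5:**
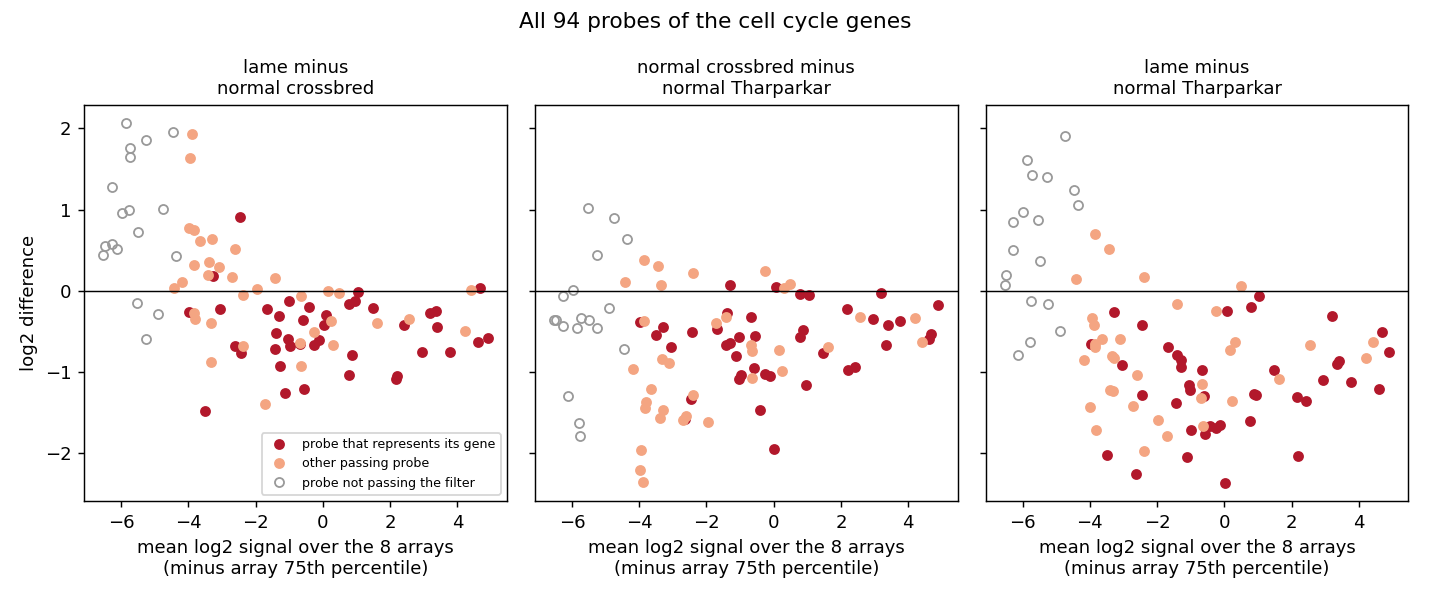
Log2 difference of each of the 94 probes against its mean level over the 8 arrays, in the 3 comparisons, with probes that represent a gene in red, other passing probes in orange and probes that did not pass as open grey circles. The dimmest probes lie mostly above 0 in both lame comparisons, and bright probes lie mostly below 0.

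Other genes of the cell cycle, from 3 further lists with 70 measured genes, had medians in the same direction. Of these, 36 were lower and 3 higher (CDCA5, ATAD2 and LIN54) in lame against normal Tharparkar, with a median of -0.77. There 10.7% of all genes were lower and 12.6% higher. Lame against normal crossbred had 9 lower and 2 higher (CDCA5 and CENPM, median -0.31), against 6.33% and 3.28% of all genes. In normal crossbred against normal Tharparkar 10 were lower and 1 higher (ATAD2, median -0.45), against 6.88% and 11.8%. By list, 22 of 35 other mitosis genes, 12 of 25 other replication genes and 2 of 10 other transcription factor and checkpoint genes were lower in lame crossbred than in normal Tharparkar cows. In lame against normal crossbred these counts were 8, 1 and 0, so the last 2 lists did not exceed the share of all genes. In normal crossbred against normal Tharparkar they were 7, 2 and 1. The mitosis list holds ECT2, which was well above background on both Tharparkar arrays and on no other array. It passed the filter only through the group where it was high, so its lower signal in crossbred cows is no separate support.

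Among the other mitosis genes SPC24 and NDC80, parts of the kinetochore complex that binds microtubules, resembled the listed genes. SPC24 differed by -1.19 in normal crossbred against normal Tharparkar and by -1.91 in lame against normal Tharparkar. NDC80 differed by -0.93 and -1.71 in these comparisons. CCNF, a cyclin that acts in a ubiquitin ligase, differed by -1.16 in lame against normal crossbred, while its other passing probe gave 0.18. NCAPD2, a condensin subunit, differed by -1.03 on its brightest probe, and its other probes gave -2.56 and 0.44. CDCA5 (sororin), which holds sister chromatids together, went the other way. It was well above background on all 4 lame arrays and on no normal array, so it passed the filter only through the lame group. A higher signal in lame cows was thus partly set by the filter, and its tests are no separate support. CDCA5 was at least 2.96-fold higher in lame than in normal crossbred and at least 2.20-fold higher in lame than in normal Tharparkar cows (limma adjusted p = 0.0226 and 0.0111).

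Among the other replication genes ASF1B, a histone chaperone of the fork, differed by -1.35 in lame against normal crossbred and -2.19 in lame against normal Tharparkar. POLA2, a subunit of the primase polymerase, differed by -1.67 in normal crossbred against normal Tharparkar and by -1.52 in lame against normal Tharparkar. UHRF1, which copies DNA methylation behind the fork, differed by -1.53 in lame against normal Tharparkar. Of the factor and checkpoint list, EXO1, a DNA repair exonuclease, differed by -1.20 in lame against normal Tharparkar. ATAD2, a chromatin factor, was higher by 1.15 in normal crossbred and 1.26 in lame crossbred than in normal Tharparkar cows.

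Genes of G1 and of cell cycle arrest did not share one direction. Of 7 G1 genes, 2 were lower and 1 higher in lame against normal Tharparkar. There CKS1B, a CDK-binding protein, differed by -1.21, CDK4, the kinase of G1, by -0.82, and CCND2, a cyclin D, by 0.46, with 0.88 in normal crossbred against normal Tharparkar. CKS1B is also counted among the other mitosis genes. Of 17 inhibitors and quiescence genes, 6 were lower and 1 higher in lame against normal Tharparkar, where 10.7% of all genes were lower and 12.6% higher. Among the 17, CDKN2B was well above background on all normal arrays and on no lame array. It passed the filter only through the groups where it was high, so its lower signal in lame cows is no separate support.

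CDKN1A (p21), an inhibitor of cyclin-dependent kinases, was lower where the cell cycle genes were lower. It read 1.26, 1.08, 1.47 and 1.35 in lame crossbred, 2.26 and 2.19 in normal crossbred and 3.78 and 3.48 in normal Tharparkar. The difference was -0.93 in lame against normal crossbred (limma adjusted p = 0.0156), -1.41 in normal crossbred against normal Tharparkar (limma adjusted p = 0.00363) and -2.34 in lame against normal Tharparkar (limma adjusted p = 0.000261). Its other passing probe gave 0.73, -2.0 and -1.27, so the lameness difference had no settled sign. CDKN3, a phosphatase that acts on CDK1 and CDK2, differed by -2.19 in lame against normal Tharparkar. CDKN1C (p57), another inhibitor, was not well above background on the Tharparkar arrays and passed the filter only through the normal crossbred arrays. A higher signal there than in Tharparkar was thus partly set by the filter, and its tests are no separate support. CDKN1C was at least 2.38-fold higher in normal crossbred and at least 1.70-fold higher in lame crossbred than in normal Tharparkar cows (limma adjusted p = 0.000594 and 0.000461).

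Markers of other cells moved beside these genes. The summed signal of 10 of 13 listed granulocyte genes ran in the same order as the cell cycle genes, at a log2 of 7.27 to 7.66 in lame crossbred, 7.84 to 7.92 in normal crossbred and 7.98 to 8.04 in normal Tharparkar. MPO, S100A9 and S100A12 in that list did not share the order, while the means of its other measured genes did. MPO, a granule enzyme, was 2.07 higher in normal crossbred than in normal Tharparkar cows. The means in lame crossbred, normal crossbred and normal Tharparkar were 2.65, 2.45 and 2.28 for S100A9 and 6.51, 6.63 and 6.31 for S100A12. The sum is weighted towards the brightest genes, S100A8 and S100A12 among them. The sum of 7 of 9 plasma cell genes ran in the same order, at 5.46 to 5.55 in lame crossbred, 5.72 to 5.83 in normal crossbred and 6.11 to 6.20 in normal Tharparkar. Single plasma cell genes did not all follow it: by limma 0 were called in lame against normal crossbred (JCHAIN and MZB1 lower at an unadjusted p under 0.05), and in both comparisons with Tharparkar IRF4 and XBP1 were lower and PRDM1 was higher. PRDM1 differed by 1.27 in normal crossbred and 0.99 in lame crossbred against normal Tharparkar. Means in normal crossbred and normal Tharparkar were 3.86 and 3.83 for JCHAIN and 1.06 and 0.86 for MZB1. These did not step up to Tharparkar, while the means of DERL3, IRF4, POU2AF1 and XBP1 did. T cell genes did not follow this order: 14 of 16 summed to 6.76 to 7.06 in lame crossbred, 7.51 to 7.61 in normal crossbred and 6.66 to 6.68 in normal Tharparkar. NK and cytotoxic genes (11 of 11) were likewise highest in normal crossbred, with sums of 5.53 to 6.48 in lame crossbred, 7.18 to 7.29 in normal crossbred and 5.93 to 6.03 in normal Tharparkar.

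The sums of 6 of 10 B cell genes were 6.65 to 7.37 in lame crossbred, 7.33 on both normal crossbred arrays and 7.43 to 7.60 in normal Tharparkar, and those of 11 of 14 erythroid and precursor genes were 4.13 to 4.79, 3.49 to 3.65 and 3.46 to 3.55 in the same order of groups. Monocyte genes (10 of 12) summed to 5.43 to 5.97 in lame crossbred, 4.97 to 4.98 in normal crossbred and 5.28 to 5.39 in normal Tharparkar. Platelet genes (5 of 9) summed to 4.12 to 4.32, 3.84 to 3.93 and 3.21 to 3.31, and dendritic cell genes (3 of 9) to 4.01 to 4.66, 3.71 to 3.79 and 3.94 to 4.07, both in the order lame crossbred, normal crossbred and normal Tharparkar. The monocyte gene FCGR1A was not well above background on any array, and the granulocyte gene CAMP and the plasma cell gene SDC1 were on 1 each. The sum over the 41 cell cycle genes was 6.75 to 7.37 in lame crossbred, 7.51 to 7.55 in normal crossbred and 8.0 to 8.02 in normal Tharparkar. In lame against normal crossbred 6 of the 10 granulocyte genes were called lower. The part of any of these cells in the cell cycle differences was not tested.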

How the data were processed

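Spot intensities are as the authors deposited them from the scanner software. Per the file headers, Agilent Feature Extraction 12.0.3.1 made the processed signal by subtracting background and detrending each array, while the submitters' processing notes name version 11.5.1.1. A log2 table deposited by the authors, with scale and centring unstated, matched these signals scaled per array and centred per probe (correlations of at least 0.999998, column medians from -0.12 to 0.88) and served as an alternative.

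A level is the log2 processed signal less the 75th percentile of its array over 43653 noncontrol probes. Control spots and 35 outlier probes were left out, and 0 spots were saturated. Accessions without versions were matched to a RefSeq table of ARS-UCD2.0, where 27054 probes matched 1 gene and 16599 none. The array annotation is on bosTau6, so no coordinates are given. After the filter on dim probes (24658 kept), the brightest probe on average stood for its gene. Of the 41 genes, 37 were well above background on all 8 arrays.

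Groups came from sample titles. A single limma 3.58.1 fit (R 4.3.3, lmFit and eBayes, 2-sided) held 3 group means over 8 arrays, with Benjamini-Hochberg adjustment over all genes, and was tested on simulated data. The simulated arrays were independent, so that test cannot speak for arrays that share an RNA. Arrays were the observations, since titles do not settle which share an RNA. An at-least fold compares the brighter group's mean with a floor, which on each dim array is the probe's own signal or, if higher, the dimmest signal still well above background. Alternatives covered duplicates, slide, background correction, scaling, filter, probe choice, lame RNA sample, array weights and each array left out. Normexp used median signals because the files hold no mean signals. Normal arrays with the same number share a slide, and their deviations from group means correlated at 0.24, while lame arrays with the same last number gave -0.66 and -0.82. The genes, lists and tests were chosen with earlier results of these data known. Per-array levels are given for the 24 called genes with the smallest adjusted p and for others singled out after their values were seen. Of the other lists, called genes among the 3 largest differences are named. The number of arrays limits the precision. Detection of some marker genes is not reported here.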

Additional observations from a re-analysis of the deposited data

Results flagged for a closer look

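KIF11 on lame R2_2 read -5.40, far under the other 3 lame arrays, with a gap of 0.84 of the group's range. Chance flags about 1 in 20 groups of this size by that measure. The value was not well above background.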

How the results depend on the processing

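No alternative that kept a gene's brightest probe or averaged its probes reversed a called gene. Taken on its own, another passing probe was of opposite sign for KIF23 (0.20 in lame against normal crossbred and 0.51 in lame against normal Tharparkar) and NCAPG (0.14 in lame against normal Tharparkar). In lame against normal crossbred, where 7 genes were lower, the count was 0 with duplicates averaged by first number, 6 by last number (with MCM3 higher), 0 with the RNA sample as a random block, 4 with the slide as a replicate block, 3 with only these groups fitted and 1 with no filter. It was 25 with lame R1 alone, 30 with lame R2 alone and 26 with array weights, fits that called 22.5%, 31.2% and 23.6% of all genes lower, and 0 to 11 with an array left out. The median was -0.32 over every probe. In normal crossbred against normal Tharparkar, where 9 were lower, the count was 0 with duplicates averaged by first number, 11 by last number, 1 with the random block, 30 with only these groups fitted (27.6% of all genes), 5 with normexp, 4 with no filter and 16 with the mean of probes. It was 31 with lame R1 alone, 25 with lame R2 alone and 32 with array weights, against 27.6%, 21.9% and 29.7% of all genes, and 2 to 20 with an array left out. In lame against normal Tharparkar, where 29 were lower, it was 2 with duplicates averaged by first number, 32 by last number, 5 with the random block, 19 with no filter and 12 to 30 with an array left out. The median there was -0.90 with normexp, -0.99 with the mean of probes, -0.97 over every probe, -0.95 with lame R1 alone, -1.36 with lame R2 alone and -0.95 with array weights. Normexp moved the median of all genes to -0.16 in that comparison, and no filter moved it to 0.22. Fits with no filter called 0.871%, 1.13% and 2.16% of all genes lower in these 3 comparisons, in the order given. In lame against normal crossbred the slide block called 4.29% and a fit of only these groups 3.23%. In normal crossbred against normal Tharparkar normexp called 3.36% and the mean of probes 9.99%. With any 1 normal array left out, the shares of all genes also fell. The slide block changed the count by over 1.5 times in lame against normal crossbred only. The cause of these changes was not tested, except that lame R1 or R2 alone and averaging change the number of arrays. Within-slide values and dim probes without lame R2_2 were added after seeing the data. If there were 4 RNA samples, differences between cows cannot be told apart from differences between groups.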
